A study of Mus musculus with 8 samples.

Results

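The clustered protocadherins are cadherin-like adhesion proteins encoded side by side in 3 arrays, named alpha, beta and gamma, on mouse chromosome 18. They were taken here by symbol from the table of genes: 46 of 20976 genes matched, 4 of the alpha, 21 of the beta and 21 of the gamma cluster. RNA came from muscle stem cells, the satellite cells that repair muscle fibres, sorted by flow cytometry from mice with both copies of Chd4 flanked by loxP sites (Chd4LoxP/LoxP), and grown briefly in medium with 20% FCS and 5 ng/ml bFGF. Cells infected with an adenovirus carrying CRE recombinase, which deletes Chd4 exons 12 to 21, formed the Cre group, and cells infected with AdenoGFP formed the control, with 4 mice per group. All cells of both groups thus carried the loxP alleles and an adenovirus. No library joined Cre with an unfloxed Chd4, so the action of Cre itself and the loss of Chd4 cannot be told apart, and no source used here states the ages of the mice.

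In each alpha or gamma gene, a variable exon with its own promoter encodes the extracellular and membrane parts of the protein and is spliced to constant exons that the whole cluster shares. Beta genes consist of variable exons alone. In neurons, cells switch on differing sets of these promoters, a choice that involves CTCF, cohesin and DNA methylation, and the proteins then mark a cell as distinct from its neighbours. The C-type members at the ends of the alpha and gamma clusters are instead used more uniformly. Muscle stem cells are not a classic setting for these genes.

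In GENCODE M21 (GRCm38) the 46 members lay on the plus strand between 36997880 and 37841873. The 4 alpha members shared 3 constant exon stretches of 59, 89 and 2712 bases. The 21 gamma members shared 3 stretches of 59, 89 and 1971 bases, beginning at 37825021, 37833265 and 37839903. No stretch of exon was held by 3 or more beta genes. No source used here says how reads in shared exons were assigned. In the library Cre 3, however, Pcdhga12 stood at 9 and Pcdhgc3 at 4090 normalised reads, so the reads of the gamma constant exons had not been added to every gamma member. The values are read here as those of the variable exons, which is an assumption. These levels cannot show whether reads of the constant exons went to a single member. The summed output of a constant region was not measured.

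Values are normalised reads: the depositors had put the reads of each gene on a common scale and rounded them. Library totals on that scale lay between 27897860 and 28876348, and the original depth, estimated from gaps among low values, between 23.3 and 38.0 M reads. Chd4 stood at 3686 to 5480 in the Cre and at 15904 to 20121 in the GFP libraries, which matches the labels. The 9 markers of muscle stem cells and myoblasts summed to between 214347 and 234418 in Cre and between 180707 and 211606 in GFP. The groups did not overlap in this sum. Of 9 neuronal markers 7 had a value, and these differed widely: Snap25 lay at 0 to 25 and Syt1 at 0 to 46, but Tubb3 at 245 to 914 and Stmn2 at 131 to 1709.

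Most reads of the members came from gamma and beta genes (plot of all members by library). The alpha cluster is covered only in part, since 4 of its 13 symbols in GENCODE M21 were among the members and the other 9 were not analysed here. Pcdha9, Pcdha11 and Pcdha12 lay at 0 to 8 reads. In order of replicate number, the gamma members summed to 8184, 6990, 6588 and 8331 normalised reads in Cre and to 7663, 6257, 6389 and 7590 in GFP. The beta members summed to 4212, 3951, 3464 and 3472 in Cre and to 5088, 3771, 3283 and 2943 in GFP. The alpha members summed to 85, 81, 38 and 25 in Cre and to 76, 58, 29 and 29 in GFP. Every gamma sum thus lay above every beta sum, and the 4 alpha members made up 0.211 to 0.735% of the reads of all members. In bulk RNA, fewer cells using a gene and less RNA per cell cannot be told apart.

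**Figure D1:**
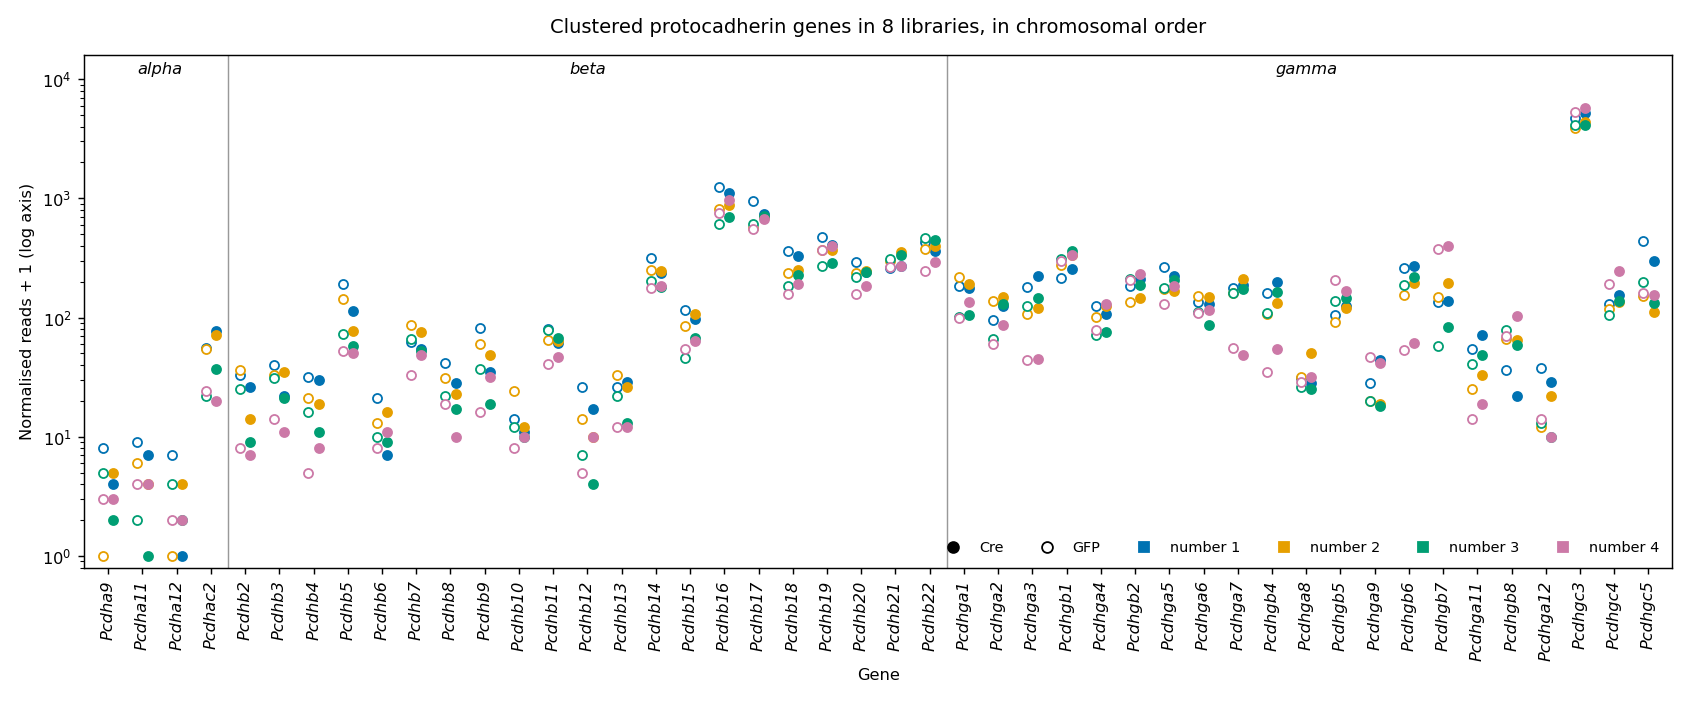
Normalised reads plus 1 (log axis) of the 46 members in chromosomal order, with filled points for Cre, open points for GFP and a colour for each replicate number. Pcdhgc3 lies above all other members in every library, at 3887 to 5754, and Pcdha9, Pcdha11 and Pcdha12 lie at 0 to 8.

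A single C-type gene, Pcdhgc3, dominated. The protein is known to bind the Wnt pathway scaffold Axin1. Its level by replicate number was 5183, 4335, 4090 and 5754 reads with Cre, beside 4697, 3887, 4102 and 5329 with GFP. It gave 61.3 to 70.2% of the gamma reads and 36.6 to 50.5% of the reads of all members. Libraries numbered 1 and 4 were high and those numbered 2 and 3 low in both groups, and the groups overlapped.

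Per kilobase of exon not shared with another gene on the same strand, Pcdhgc3 reached 1382 ± 202 reads. It was followed by Pcdhb16 with 170 ± 41.8, Pcdhb17 with 147 ± 26.6 and Pcdhgb1 with 113 ± 18.3 (SD, n = 8). Neighbours among these last 3 overlapped in their values per library, whereas Pcdhgc3 lay far above all of them. The Pcdhgc3 figure assumes that no reads of the shared constant exons were assigned to this gene. Its deposited coordinates also differ from those in GENCODE M21, so its exon length may differ from that used in counting. BC037039, an antisense gene at 30 to 58 reads, overlaps Pcdhgc3 exons. With the overlapped bases left out of the length but all reads kept, Pcdhgc3 had 2566 reads per kilobase. That figure holds only if reads in the overlap had not been counted, which is not known.

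The other C-type genes were much lower. Pcdhgc4, which neurons need for survival, stood at 154, 134, 136 and 243 in Cre and at 129, 116, 105 and 192 in GFP. Pcdhgc5, the last gene of the array, stood at 299, 110, 132 and 154 in Cre and at 437, 152, 197 and 161 in GFP. Pcdhgc4 was highest in both libraries numbered 4 and Pcdhgc5 in both libraries numbered 1, and for each gene the groups overlapped. Pcdhac2, which serotonergic axons use to keep apart, was the only alpha gene above the filter on low values, which was 1 CPM, taken on the library total, in at least 4 libraries. It stood at 76, 71, 36 and 19 in Cre and at 55, 53, 21 and 23 in GFP. Per kilobase of exon unshared on the same strand, its 14.6 reads were near the 14.2 of the low gamma gene Pcdhga11. They were above the 6.57 of the beta gene Pcdhb3. The antisense gene Gm26672 overlaps Pcdhga11 exons, and with these bases left out of the length Pcdhga11 had 29.9. That figure holds only if reads in the overlap had not been counted, which is not known.

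Of the 46 members, 34 passed that filter, namely 1 alpha, 14 beta and 19 gamma genes. The 12 that did not were Pcdha9, Pcdha11, Pcdha12, Pcdhb2, Pcdhb4, Pcdhb6, Pcdhb8, Pcdhb10, Pcdhb12, Pcdhb13, Pcdhga9 and Pcdhga12. Their values ranged from 0 to 46, and 7 of them are beta genes of the upstream part of that cluster.

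No call was made at any of the 34 members between Cre and GFP when the 8 libraries were treated as independent (limma, Benjamini-Hochberg adjusted p under 0.05 over 12910 genes). The same test called 1.08% of all genes, 0.837% higher and 0.248% lower in Cre. Before adjustment, 0 of 34 had a p under 0.05, against 16.7% of all genes. With voom weights limma called 0 of 34 and 1.19% of all genes. No member had groups without overlap, against 10.6% of all genes. The log2 changes lay between -0.51 and 0.51 with a median of 0.10. Of these changes, 24 were above 0 and 10 below, or 70.6% above 0 beside 49.8% of all genes. With 1 library left out the median ranged from -0.014 (without GFP 4) to 0.18 (without GFP 1), and was 0.026 without Cre 1. Over all genes the median was -0.00081 and the median size of a change was 0.17, beside 0.14 for the members. The median half-width of the 95% interval was 0.63 for members, so a change of that size would often have gone undetected. Over all genes that half-width was 0.35, so these shares were not taken at equal precision.

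Libraries of the same number deviated together, and the paired model, which has the replicate number as a block, is therefore given beside these counts. It called 6 of the 34 members, 4 higher and 2 lower, or 17.6%, where it called 43.9% of all genes (22.2% higher and 21.7% lower). The half-width of its 95% interval had a median of 0.27 for members and 0.14 for all genes. Members also had fewer reads, with a median of 148 against 863, so the 2 shares are not like for like. By cluster, the paired model called 5 of 19 tested gamma genes (26.3%), 1 of 14 beta genes (7.14%) and 0 of 1 alpha gene. Each share is below that of all genes. The split moved with scaling, to 2 higher and 2 lower when libraries were rescaled to equal totals or tested with voom and the block, which called 45% of all genes. Leaving out a pair gave 4 higher and 0 lower without pair 1, 2 and 1 without pair 2, 1 and 0 without pair 3, and 1 and 3 without pair 4. These 6 genes were picked out after their values had been seen. In all 4 pairs, 9 of the 34 members were higher in Cre, beside 3605 of 12910 genes, and 2 were lower, beside 3561 genes.

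Pcdhga2 and Pcdhgb4, both alternative isoforms of the gamma cluster, had the largest of the 4 increases. Pcdhga2 stood at 125, 148, 130 and 86 in Cre and at 95, 137, 65 and 59 in GFP. It rose in all 4 pairs in the paired model (log2 change 0.51 ± 0.15 SE, adjusted p = 0.0207), with its widest gap in pair 3, and lost the call without pair 3 (adjusted p = 0.101) or pair 4 (adjusted p = 0.0618). Pcdhgb4 stood at 196, 131, 163 and 54 in Cre and at 161, 106, 108 and 34 in GFP. It too rose in all 4 pairs (0.46 ± 0.13, limma adjusted p = 0.0136), a call lost without pair 3 (adjusted p = 0.0632), although Cre 4 lay below every GFP library except GFP 4.

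Pcdhgb1, with the highest mean of the gamma A and B genes over the 8 libraries though first in only 4 of them, stood at 253, 335, 358 and 334 in Cre and at 213, 276, 312 and 295 in GFP. Its paired change was 0.23 ± 0.08 (limma adjusted p = 0.0362) and that of Pcdhgc4 was 0.29 ± 0.10 (limma adjusted p = 0.0394). Both were higher in 4 of 4 pairs. Both lost the call whichever pair was left out (adjusted p up to 0.119 and 0.142), with voom (0.0563 and 0.0531) and with equal totals (0.0534 and 0.05455).

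The 2 decreases were those of Pcdhgc5 and Pcdhb5. Pcdhgc5, given above, fell in all 4 pairs (paired log2 change -0.41 ± 0.11, limma adjusted p = 0.0124), least in pair 4, and lost the call without pair 1 (adjusted p = 0.0511) or pair 3 (adjusted p = 0.05985). Pcdhb5 stood at 113, 76, 57 and 49 in Cre and at 191, 143, 72 and 51 in GFP. Its paired change was -0.51 ± 0.16 (limma adjusted p = 0.027), with a wide gap in pairs 1 and 2 and nearly none in pair 4. The call was lost without pair 1 (adjusted p = 0.0992), pair 2 (0.128) or pair 3 (0.0517). Of the adjacent gamma C-type genes, Pcdhgc4 was thus higher and Pcdhgc5 lower in every pair. The paired change of Pcdhgc3 was 0.10 ± 0.04 and did not pass (limma adjusted p = 0.0801), but passed without pair 3 (adjusted p = 0.0318). The alpha gene Pcdhac2 had 0.34 ± 0.21 and did not pass (limma adjusted p = 0.212).

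**Figure D2:**
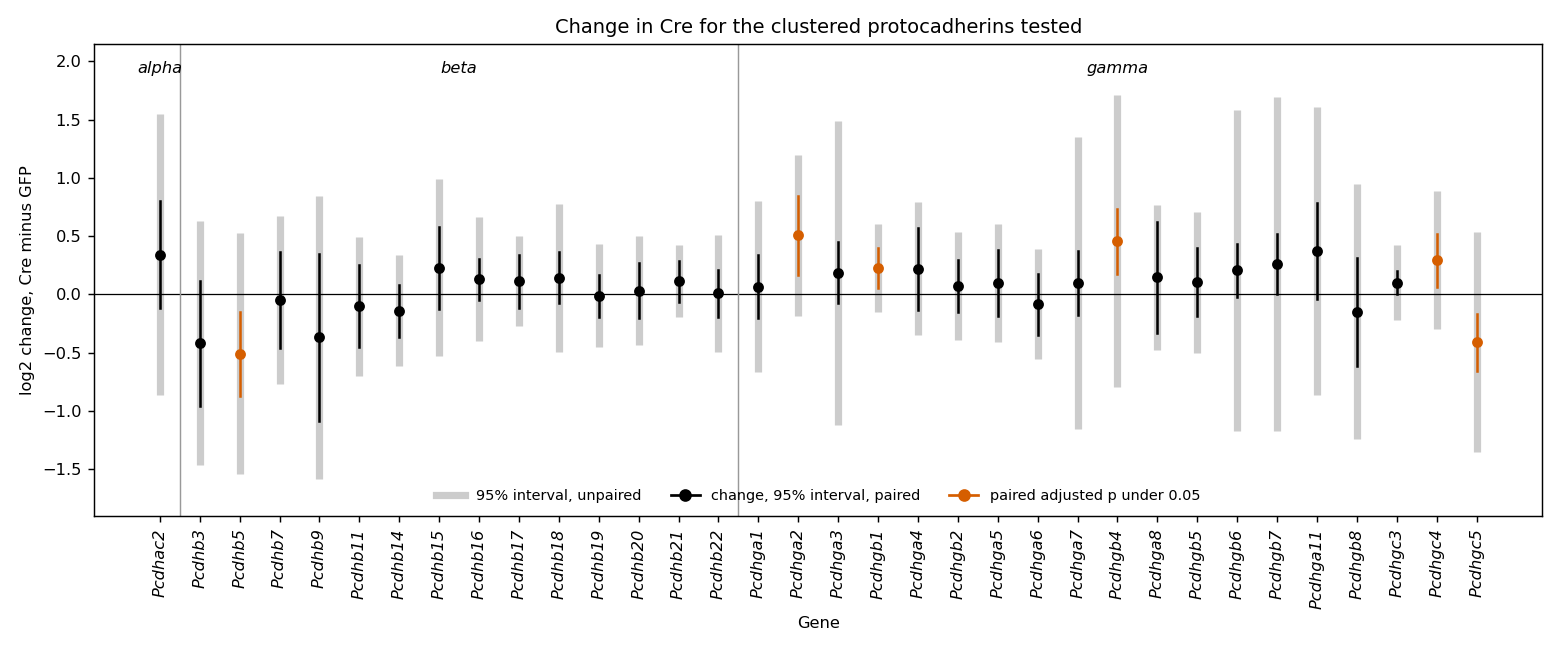
Log2 change of Cre minus GFP for the 34 members tested, in chromosomal order, with the unpaired 95% interval as a grey bar and the paired one as a line. Orange marks the 6 members that the paired model called, of which Pcdhb5 and Pcdhgc5 lie below 0.

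In the beta cluster most reads came from the downstream end. The 9 downstream genes Pcdhb14 to Pcdhb22 all passed the filter, with sums of 3790, 3543, 3185 and 3227 in Cre and 4449, 3223, 2896 and 2734 in GFP. Pcdhb16, which had the highest mean of them, stood at 1115, 884, 696 and 967 in Cre and at 1255, 810, 603 and 758 in GFP. Pcdhb17 stood at 732, 699, 704 and 676 in Cre and at 943, 567, 604 and 551 in GFP. In both libraries numbered 3 Pcdhb17 was just above Pcdhb16. Both were lower in Cre in pair 1 and higher in pairs 2, 3 and 4. Their paired changes of 0.13 ± 0.08 and 0.11 ± 0.10 did not pass (limma adjusted p = 0.214 and 0.407), and both passed without pair 1 (adjusted p = 0.02535 and 0.0106).

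Pcdhb22 stood at 363, 397, 447 and 294 in Cre and at 433, 375, 461 and 247 in GFP, and Pcdhb19 at 408, 365, 284 and 400 against 476, 368, 270 and 370. Their changes were 0.0086 ± 0.22 and -0.012 ± 0.19 in the unpaired model. Both changes are near 0, and their signs flipped under rescalings that shift all genes. Pcdhb21 stood at 270, 351, 337 and 269 in Cre and at 259, 299, 307 and 264 in GFP, a little higher in every pair. Its change was 0.11 ± 0.13 unpaired (limma adjusted p = 0.734) and 0.11 ± 0.08 paired (limma adjusted p = 0.281). Pcdhb18 stood at 330, 251, 228 and 192 in Cre and at 360, 234, 184 and 158 in GFP. Its change was 0.14 ± 0.28 unpaired (limma adjusted p = 0.856) and 0.14 ± 0.10 paired (limma adjusted p = 0.277).

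The 12 upstream beta genes Pcdhb2 to Pcdhb13 together held 422, 408, 279 and 245 reads in Cre and 639, 548, 387 and 209 in GFP. Their sum was lower in Cre in pairs 1, 2 and 3 and higher in pair 4. All 5 of them that were tested had a change below 0, also with voom and with both rescalings, with a median of -0.37, and 1, Pcdhb5, passed in the paired model. With a filter of 10 reads in at least 4 libraries, 42 members were tested, of which pairing gave 7 calls, 4 higher and 3 lower, or 16.7% beside 39.2% of all genes (20.7% higher and 18.5% lower). The gene added was Pcdhb2, at 25, 13, 8 and 6 in Cre and at 32, 35, 24 and 7 in GFP (-0.84 ± 0.31, limma adjusted p = 0.0481). At such levels counting error is large, and the division into upstream and downstream genes was made after the values had been seen.

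Most members differed between replicate numbers. An F test of the replicate number in the paired model, added after the data had been seen, passed for 29 of 34 members (85.3%), where it passed for 66.4% of all genes. The 5 that did not pass were Pcdhb9, Pcdhb17, Pcdhb21, Pcdhga4 and Pcdhga8. The range of the log2 means of the 4 numbers had a median of 0.90 for members and 0.45 for all genes tested, and exceeded 1 for 12 of 34 members (35.3%) and for 19.1% of all genes. Members had fewer reads than the genes tested, with a median of 148 against 863, and the part of counting error in their wider range was not tested. Mouse, culture and handling cannot be told apart within a number.

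Among the tested members the widest spread was that of Pcdhgb7, whose mean per number differed 5.5-fold between the lowest and the highest. By number, Pcdhgb7 stood at 137, 195, 83 and 398 with Cre and at 134, 149, 57 and 372 with GFP. Number 4 was highest and number 3 lowest in both groups. In the libraries numbered 4 it led the 18 gamma A and B genes, with 18.3% of their reads in Cre 4 and 19.5% in GFP 4. In the libraries numbered 3 it ranked 12 and 14 of the 18, with 3.72 and 2.87%. The leading gene was Pcdhgb1 in both libraries numbered 2 and both numbered 3. In number 1 the groups differed, with Pcdhgb6 (272) first in Cre 1 and Pcdhga5 (267) in GFP 1.

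Other gamma genes went the opposite way in number 4. Pcdhgb6 stood at 272, 195, 216 and 60 in Cre and at 260, 154, 186 and 52 in GFP, a spread of 4.75-fold. Pcdhga3 stood at 223, 120, 145 and 44 in Cre and at 181, 106, 123 and 43 in GFP. Pcdhga7 stood at 185, 209, 174 and 48 in Cre and at 176, 160, 159 and 55 in GFP. In both groups these 3 genes, and likewise Pcdhgb4 and Pcdhga11, were lowest in number 4. Pcdhga11 stood at 71, 32, 48 and 18 in Cre and at 54, 24, 40 and 13 in GFP.

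**Figure D3:**
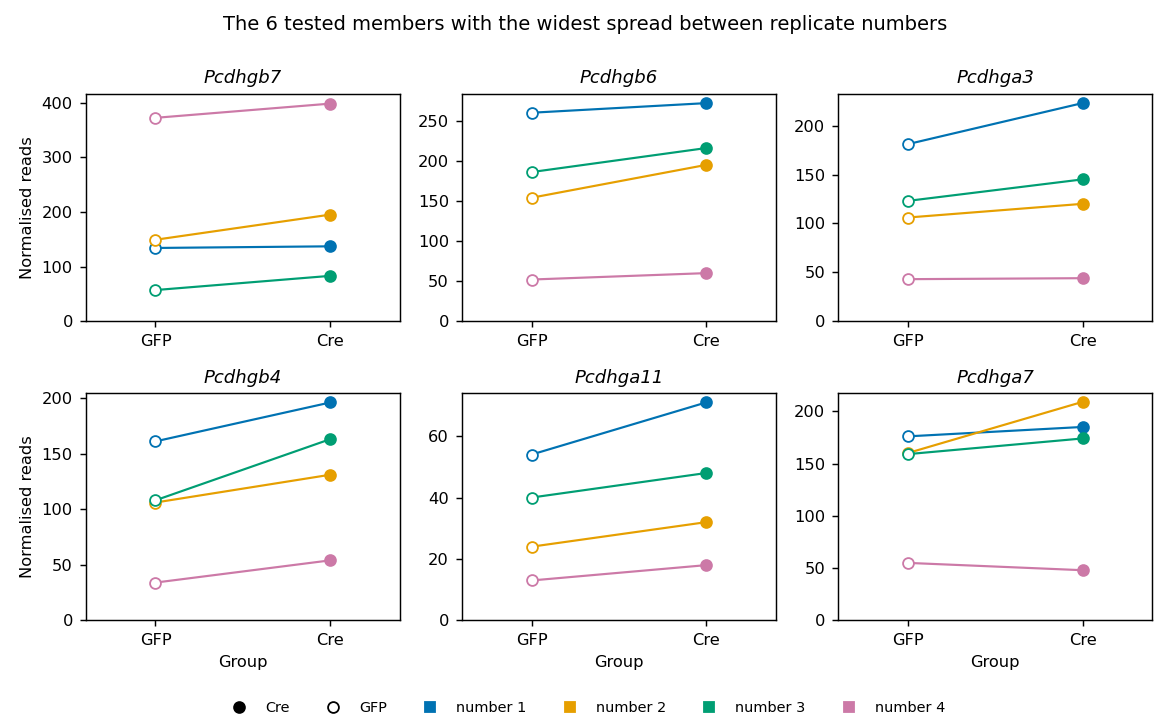
Normalised reads in the GFP and Cre libraries of each replicate number, joined by a line, for the 6 tested members with the widest spread between numbers, chosen after their values had been seen. Number 4 is highest for Pcdhgb7 and lowest for the other 5 genes in both groups, while the other lines meet or cross for Pcdhga7.

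Further gamma genes were more even. Pcdhga5 stood at 222, 165, 207 and 182 in Cre and at 267, 173, 175 and 130 in GFP, and Pcdhgb2 at 209, 144, 188 and 229 against 184, 134, 208 and 207. Neither passed in either model (paired limma adjusted p = 0.569 and 0.594). The remaining tested gamma A and B genes had unpaired changes between -0.15 and 0.22.

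Over the 34 tested members, departures from the group mean had correlations of 0.802 to 0.867 within a number, against -0.638 to 0.0344 for different numbers. For the 19 gamma members the same-number values were 0.813 to 0.937, and for the 14 beta members 0.464 to 0.778. All 12910 genes gave 0.820 to 0.908 within a number and -0.597 to 0.477 for different numbers. Taking departures from the group mean in itself lowers the values for different numbers. All these values are correlations across genes of the same libraries, which are not independent replicates, and are given as a description.

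**Figure D4:**
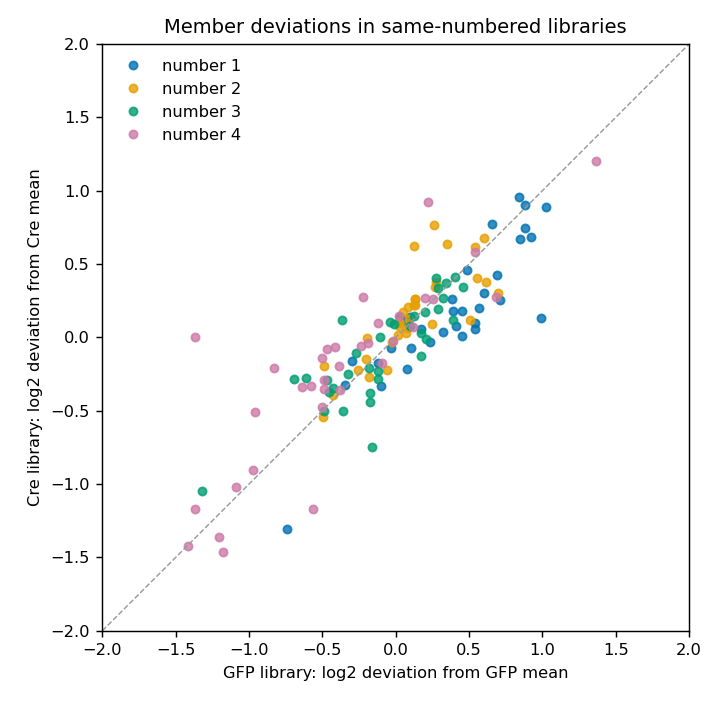
Log2 deviation of each tested member from its group mean in the GFP library (horizontal) and in the Cre library (vertical) of the same replicate number, with 34 points per number and the line of equality dashed. Points follow the line, and number 4 reaches both ends of it.

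Genes known to act on these clusters were mostly lower in the paired model. Of 29 listed (CTCF, cohesin and its loaders, DNA methyltransferases, heterochromatin proteins and related factors), 28 were tested. The unpaired model called 0, and so did voom without the block, while 5 genes, all lower, had an unadjusted p under 0.05, or 17.9% beside 16.7% of all genes. With pairing, 18 fell and 2 rose, 71.4% of the list beside 43.9% of all genes (22.2% higher and 21.7% lower). The listed genes had more reads than all genes tested, with a median of 3403 against 863. Their paired intervals were narrower, with a median half-width of 0.11 against 0.14, and the part of this in the share called was not tested. The median change of the list was -0.22. The 2 that rose were Atf7ip, a cofactor of the H3K9 methyltransferase SETDB1, with 0.19 (limma adjusted p = 0.00379), and the DNA methyltransferase Dnmt3a with 0.25 (limma adjusted p = 0.0141). The cohesin regulator Pds5a went from 5047 ± 598 in GFP to 4076.5 ± 338 in Cre (paired log2 change -0.30, limma adjusted p = 0.000751). Wiz, a zinc finger partner of the G9a methyltransferase, changed by -0.33 (0.00167), and the maintenance methyltransferase Dnmt1 by -0.67 (limma adjusted p = 1.7e-05). Ctcf, named outside the rule, changed by -0.16 (limma adjusted p = 0.00803).

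Protocadherins and large cadherins outside the clusters moved in both directions. Of 22 listed, 16 were tested. Before adjustment, 1 had an unpaired limma p under 0.05, or 6.25% beside 16.7% of all genes. After adjustment the unpaired model still called this 1 gene, where it called 1.08% of all genes. This was Cdhr1, a cadherin best known from photoreceptors, at 452, 230, 345 and 235 in Cre and 135, 109, 127 and 105 in GFP (log2 change 1.35 ± 0.23, limma adjusted p = 0.0418). The call was lost with voom (adjusted p = 0.071), with a filter of 5 CPM (0.0544) and without any single library (up to 0.149). In the paired model 5 rose and 4 fell, 56.25% of the list beside 43.9% of all genes, among them Pcdh7 with -0.28 (limma adjusted p = 0.000587). Celsr3, a planar polarity cadherin, had 0.55 and did not pass (paired limma adjusted p = 0.0545).

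Of 24 genes for processing and partners of these proteins, 23 were tested. Neither the unpaired model nor unpaired voom called any (0), and 2 had an unadjusted p below 0.05, or 8.7% beside 16.7% of all genes. With pairing, 4 rose and 2 fell, 26.1% of the list beside 43.9% of all genes. Cyfip1, a subunit of the WAVE actin regulatory complex, changed by -0.21 and the focal adhesion kinase Ptk2 by -0.19 (limma adjusted p = 0.00172 and 0.00283). Ret, a receptor tyrosine kinase that can join protocadherin complexes, stood at 66, 190, 441 and 102 in Cre and at 20, 52, 152 and 17 in GFP (paired change 1.89 ± 0.17, limma adjusted p = 2.6e-05). Axin1 had a change of 0.02 (paired limma adjusted p = 0.75).

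Genes around the arrays were examined within 500 kb on either side. Of 40 such genes 25 were tested, and the unpaired model and voom called 0. Unadjusted p-values below 0.05 were found for 5 of them, 20% beside 16.7% of all genes. With pairing, 3 rose and 6 fell, 36.0% of them beside 43.9% of all genes. Arap3, a GTPase-activating protein downstream of phosphoinositide 3-kinase, stood at 420, 422, 342 and 1051 in Cre and at 98, 131, 47 and 320 in GFP. The groups did not overlap, and its change of 2.08 ± 0.58 did not pass without pairing (limma adjusted p = 0.139) and passed with it (1.2e-05). Hars2 and Ankhd1, upstream of the alpha cluster, changed by -0.26 and -0.19 (paired limma adjusted p = 0.00568 and 0.00748). Taf7, which lies between the beta and gamma clusters, had a change of 0.12 (paired limma adjusted p = 0.286), and Diaph1, just beyond Pcdhgc5, one of -0.02 (paired limma adjusted p = 0.798).

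Of the 9 markers of muscle stem cells and myoblasts, the paired model called 4 higher and 3 lower, 77.8% beside 43.9% of all genes. Chrna1, Myod1, Megf10 and Des rose, and Pax7, Vcam1 and Myf5 fell. Markers of other cell types were present at varying levels. The 7 neuronal markers with a value summed to between 980 and 2572 in Cre and between 514 and 1639 in GFP, and the 6 Schwann cell and glial markers to between 1308 and 3915 and between 1155 and 3420. Tubb3 and Stmn2 rose in all 4 pairs (log2 change 1.10 and 1.00, paired limma adjusted p = 6.8e-05 and 6.9e-05). The 7 pericyte and smooth muscle markers summed to between 56426 and 88071 in Cre and between 25076 and 45857 in GFP, without overlap. Of these, Rgs5 stood at 23078 to 53834 in Cre and at 6092 to 13761 in GFP (log2 change 2.08, unpaired limma adjusted p = 0.0277). The other 6 summed to between 19704 and 40106 in Cre and between 17356 and 39765 in GFP, which overlap. The 5 fibroblast markers summed to between 10788 and 27013 in Cre and between 13259 and 28947 in GFP, most of it Col3a1. Col1a1 stood at 144 to 370 in Cre and at 9 to 18 in GFP, and Ly6a at 346 to 565 and at 60 to 144. Both rose without overlap (log2 change 4.19 and 2.35, unpaired limma adjusted p = 0.00412 and 0.0164). Col3a1 instead was lower in Cre in all 4 pairs (log2 change -0.25, paired limma adjusted p = 0.00278). Pdgfra changed by 0.04 (paired limma adjusted p = 0.825), and Dcn lay at 1 to 22 in both groups. For endothelial cells the sums of 6 markers were 371 to 763 in Cre and 252 to 381 in GFP, and for blood those of 3 markers were 122 to 455 and 51 to 278. With pairing, Tek, of 3 endothelial markers tested, rose by 1.46 (limma adjusted p = 3.3e-05). Cd68, the only blood marker tested, rose by 1.00 (limma adjusted p = 0.000369). Of 4 glial markers tested, Ngfr and Erbb3 rose by 1.13 and 0.25 (paired limma adjusted p = 0.00014 and 0.0018). No endothelial, blood or glial marker was called lower. The part of other cell types in the protocadherin values was not tested.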

How the data were processed

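The libraries came from 4 mice per condition and followed a stranded kit protocol (per the labels). As tools the submitters' processing notes list DESeq, Subread with its featureCounts 1.5.3, and the aligner STAR 2.5.3a, with the builds mm10 and GRCm38; no source used here states settings, strand use or annotation release. The deposited numbers were read as a score, meaning gene reads that the authors had brought to a common scale and rounded: library totals were nearly equal, and small values skipped or doubled in regular steps. The multiplier per library, estimated from values up to 300, was 0.741 to 1.20. Reads are not independent molecules.

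Because the values are scaled, no count model was used. The models were fitted with limma 3.58.1 (R 4.3.3), using an intensity trend, on log2(value + 1) of the 12910 genes with 1 CPM or more in 4 or more libraries. Fold changes on this scale understate those of low genes. P-values are two-sided, adjusted by Benjamini-Hochberg over all genes tested, with a threshold of 0.05. Tables were made in Python 3.11.15. The fits were also run on simulated data with the pairing built in and with changes larger than those of the members. That run therefore does not show how well changes as small as these are found.

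No label says whether equal numbers share a mouse, so p-values measure the spread between these libraries. Over all genes, each same-numbered Cre and GFP library departed from its group mean together with its partner (correlations of 0.820 to 0.908, all above 0.1). Libraries of different numbers gave -0.597 to 0.477. Numbers 2 and 3 also went together, with 0.477 for Cre 2 and GFP 3 and 0.426 for Cre 3 and GFP 2. On these values alone the number was used as a pairing, and the paired model is given where it changes a call.

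GENCODE M21 held all 46 member identifiers, 43 with the same coordinates, while Pcdhb6, Pcdhb8 and Pcdhgc3 had other coordinates. It held 57 symbols of the kind searched, and those not among the members were not analysed here. The rule for members given by library took those passing the unpaired test (0), C-type genes above the filter and the 6 highest above it in each cluster, with the 3 lowest p-values of each further list. Members called with pairing, those of widest spread, and further genes outside this rule were added after their values had been seen. Members, lists and rules were chosen with earlier results of these data known. No sequence is printed.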

Additional observations from a re-analysis of the deposited data

Results flagged for a closer look

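In 4 of the 68 groups of 4 libraries examined for the 34 tested members, 1 library stood far from the other 3 by Dixon's ratio of gap to range at its 95% critical value. Chance flags about 1 in 20 such groups. Pcdhb17 stood at 943 in GFP 1 and at 551 to 604 in the other GFP libraries (ratio 0.865). Pcdhgc5 stood at 437 in GFP 1 and at 152 to 197 in the others (ratio 0.842). Pcdhga7 stood at 55 in GFP 4 and at 159 to 176 in the others (ratio 0.86), with the Cre library of the same number also lowest. Pcdhb20 stood at 184 in Cre 4 and at 238 to 246 in the others (ratio 0.871).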

How the results depend on the processing

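No clustered protocadherin was called in any of the 17 unpaired fits (2 rescalings, pseudocounts of 0.1 and 5, other filters, voom and each library left out). All genes called numbered 140, 85 with a filter of 5 CPM and 1 to 58 with 1 library left out. With the replicate block, counts were 5665 for all genes, 0 alpha, 1 beta and 5 gamma members, 20 regulators, 9 protocadherins outside the clusters, 6 processing genes and 9 neighbours. In the same order, voom with the block gave 5811, 0, 1, 3, 20, 8, 8 and 9. The block with a filter of 10 reads gave 5915, 0, 2, 5, 19, 10, 6 and 8, and with equal totals, added after seeing the data, 5764, 0, 1, 3, 20, 9, 7 and 9. Without pairs 1 to 4 in turn, the block gave 4923, 4489, 4800 and 4261 genes, 0 to 2 beta and 1 to 3 gamma members, 16 to 20 regulators, 7 to 9 protocadherins outside the clusters, 4 to 6 processing genes and 6 to 9 neighbours. Of the protocadherins outside the clusters, 1 was called without the block, and 0 with voom, with 5 CPM or without any 1 library. The replicate number passed for 21 to 32 members in the alternatives with the filter of 1 CPM and for 36 of 42 with that of 10 reads.

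Some changes near 0 flipped sign, and the cause was not tested. Pcdhb22 was at -0.013 with voom, -0.029 with voom and the block, -0.013 with equal totals (with or without the block), -0.016 and -0.072 with the block without pair 2 and pair 4, and -0.18 to 0.12 without 1 library. Pcdhb19 was at 0.024 with equal upper quartiles, 0.058 with the block without pair 1, and -0.16 to 0.12 without 1 library. Pcdhga5 was at -0.031 with the block without pair 4 and at -0.058 to 0.29 without 1 library. Without 1 library Pcdhb16 ranged from -0.023 to 0.33, Pcdhb18 from -0.023 to 0.37, Pcdhgb7 from -0.18 to 0.72 and Pcdhgb2 from -0.071 to 0.20. Low values limit the 12 members below the filter most.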
